A study of Mus musculus with 12 samples.

Results

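The mRNAs described here belong to 9 mouse genes that encode no ribosomal protein but are listed with the 5′ terminal oligopyrimidine (TOP) mRNAs: Pabpc1, Tpt1, Rack1 (formerly Gnb2l1), Naca, Btf3, Nap1l1, Hnrnpa1, Vim and Pfdn5. They were found by symbol, current or former, among the probe sets (groups of array probes that read 1 transcript region), and each gene was represented by its probe set with the highest mean over the 12 arrays. Of the 9 genes, 7 had a probe set of their own, and all 7 passed the filter on dim genes that left 13180 genes for testing. Rack1 was under none of its names in the annotation used and was not measured here. Hnrnpa1 was annotated only on 4 probe sets shared with Gm10052, Hnrnpa1l2-ps2 and Gm5643, so its level could not be told apart from theirs.

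A TOP mRNA begins at its cap with a cytosine followed by an unbroken run of pyrimidines. In mammalian cells this start ties the translation of the mRNA to growth signals through mTORC1, the 4E-BPs, which hold the cap-binding protein eIF4E away from the scaffold eIF4G, and LARP1, which binds the cap and the first bases of TOP mRNAs. Most TOP mRNAs encode ribosomal proteins and translation factors, and the genes described here add a poly(A)-binding protein, nascent-chain factors and a few proteins with other duties.

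The cells came from a single clone, #483, of mouse T-ALL, an acute leukaemia of the T cell lineage, of strain C57BL6. The groups, each of 3 single-colour arrays, were polysomal RNA of cells given 4EGI-1 at 100 µM for 2 h, polysomal RNA of control cells, cytoplasmic RNA of cells given the same 4EGI-1 treatment, and cytoplasmic RNA of control cells. 4EGI-1 is a small molecule that disrupts the eIF4E-eIF4G interaction. Control cells are labelled untreated, although the treatment text names the solvent DMSO, and the cytoplasmic arrays are titled as total RNA.

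The values are deposited log2 values made with RMA, which brings arrays to a common scale, so a difference is relative to the other genes and does not measure a change in total polysomal RNA. Values of 2 genes are not compared with each other, since probe brightness differs. Of 8 T cell markers measured, 8 lay above the filter, with means of 6.61 to 12.1. Of the B cell markers 2 of 4 did, and of the myeloid markers 2 of 5, with no mean above 6.74. Above it were also 4 of 5 fibroblast and endothelium markers, with means up to 8.48 (Pecam1), and the 1 erythroid marker measured, at 6.74. Lying above the filter therefore did not single out T cells. Arrays of a cytoplasmic group correlated at 0.985 to 0.995 and those of a polysomal group at 0.996 to 0.997, and the standard deviation of the median gene was 0.121 and 0.133 in the cytoplasmic groups against 0.0761 and 0.0745 in the polysomal ones. The replicates are called biological in the design text without a word on separate cultures, so the p-values may measure technical spread, and a change in every cell cannot be told apart from a larger change in some of the cells.

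The annotated starts of 8 of the 9 genes were in the RefSeq promoter table of assembly GRCm38.p6, Btf3 with a pair of starts, and 30 bases of each were examined, 10 before the start and 20 from it on. The 4 windows with a run of at least 5 pyrimidines led by a C and beginning within 10 bases of the start are shown first because a pyrimidine run lies at or near their annotated start, with the longest such run, or the first of equal length, in capitals.
Rack1, chr11:48800350-48800379, plus strand: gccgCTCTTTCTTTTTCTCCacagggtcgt
Nap1l1, chr10:111473217-111473246, plus strand: gctctcgggtCTTTTTTagcgccatctgct
Vim, chr2:13574301-13574330, plus strand: ttgtccagtCCTCTgccactcttgctccgg
Naca, chr10:128035336-128035365, plus strand: tcgttCTCTTaaagaggaaacccggacgcc
The windows of Tpt1 and Pfdn5 follow because the polysomal results below turn on these genes, and neither held such a run.
Tpt1, chr14:75845246-75845275, plus strand: cgctgacgacagttccgggggagccgcgga
Pfdn5, chr15:102326106-102326135, plus strand: gcggcaccacggaggtaacgcggagggcgg

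In Rack1 the run was 16 bases long, and 0.609% of the 32851 promoters in the table held one as long. In Nap1l1 it was 7 bases long and began at the annotated start base itself, and 12.2% of promoters held one as long. The runs of Vim and Naca were 5 bases long, which 30.7% of all promoters reached. A C followed by at least 4 pyrimidines at exactly the annotated start was found in 2 of the 9 windows, those of Rack1 and Nap1l1, in 14 of 67 windows of cytosolic ribosomal protein genes (20.9%) and in 2.51% of all promoters. Within 10 bases of the start, the shares were 4 of 9 windows, 37 of 67 windows (55.2%) and 30.7%. Only the strand with the letters of the mRNA was searched. Since so many ribosomal protein genes lacked the pattern at the annotated base, a window without it says only that these letters are not there.

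With 4EGI-1, Pfdn5 was the only one of the 7 measured genes whose polysomal mRNA passed the test. It encodes a subunit of prefoldin, a cytosolic chaperone that hands unfolded actin and tubulin to the TRiC chaperonin, and it is also known as a binding partner of MYC. In polysomal RNA its log2 values were 10.51, 10.67 and 10.57 with 4EGI-1, against 11.14, 11.21 and 11.17 in control cells. All 3 treated arrays lay well below all 3 control arrays. The level fell by 0.59 ± 0.08 on the log2 scale (SE, n = 3 arrays per group), a 1.5-fold reduction (limma, adjusted p = 4.81e-05), with a 95% interval of -0.75 to -0.42, and the change ranked 280th from the lowest of the 13180 genes.

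For the other 6 genes the polysomal differences were smaller and none passed the test. Since the fit took 1 spread per gene from all 12 arrays, the wider cytoplasmic spread enters the polysomal SEs. With only the 6 polysomal arrays, Btf3 (limma, adjusted p = 0.0336) and Tpt1 (limma, adjusted p = 0.0401) passed as well. In that fit 2346 of all genes were higher and 2685 lower. Across all genes, 25.2% passed in polysomal RNA in either direction, and 12.1% were lower, so 1 of 7 is close to the background. The 7 differences were all negative, with a median of -0.17 on the log2 scale against -0.03 over all genes. On the probe sets used, every 4EGI-1 array was below every control array in 6 of the 7 genes, and Vim was the exception. That arrangement was shown by 27.1% of all genes.

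**Figure D1:**
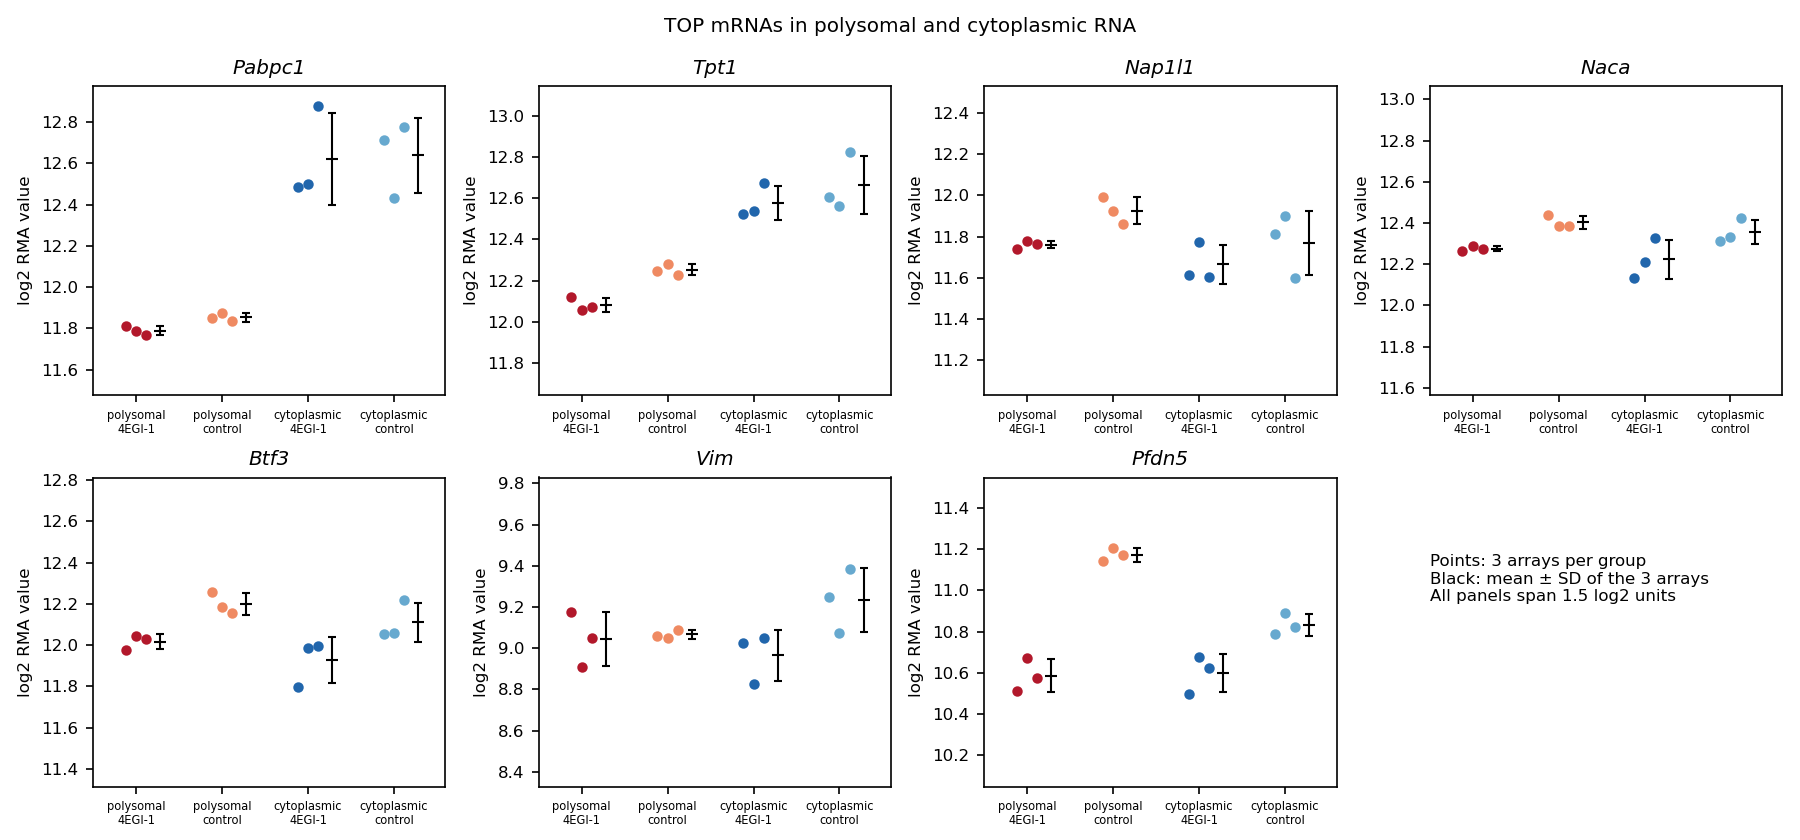
Log2 RMA values (vertical axis) of the 7 measured genes in polysomal and cytoplasmic RNA with 4EGI-1 and in control cells (horizontal axis), with 1 point per array and the mean ± SD of 3 arrays in black. In polysomal RNA Pfdn5 lies at 10.51 to 10.67 with 4EGI-1 and at 11.14 to 11.21 in control cells, while Pabpc1 and Tpt1 separate the polysomal from the cytoplasmic arrays.

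Pabpc1, the main cytoplasmic poly(A)-binding protein, which bridges the tail of an mRNA to eIF4G at its cap, had polysomal log2 values of 11.81, 11.79 and 11.77 with 4EGI-1 and of 11.85, 11.87 and 11.83 in control cells. The treated arrays were all just below the control arrays. The difference was -0.06 ± 0.11 (limma, adjusted p = 0.745), with a 95% interval of -0.29 to 0.17. Much of this SE is cytoplasmic spread. The SD of Pabpc1 was 0.021 with 4EGI-1 and 0.0202 in control cells in polysomal RNA, against 0.223 and 0.183 in cytoplasmic RNA.

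Naca and Btf3 encode the alpha and beta subunits of the nascent polypeptide-associated complex, which sits at the ribosomal exit tunnel. Polysomal Naca was at 12.26, 12.29 and 12.27 with 4EGI-1, against 12.44, 12.38 and 12.38 in control cells, and Btf3 was at 11.98, 12.04 and 12.03 with 4EGI-1, against 12.26, 12.18 and 12.16 in control cells. Both were lower on each treated array, without overlap. The difference was -0.13 ± 0.07 for Naca (limma, adjusted p = 0.249) and -0.18 ± 0.08 for Btf3 (limma, adjusted p = 0.118). Both genes had 2 probe sets, and the dimmer ones were read in a fit over 20856 probe sets. There polysomal Naca overlapped between treatments (-0.04 ± 0.08, limma, adjusted p = 0.777), so its gap depended on the probe set. Btf3 again did not overlap (-0.12 ± 0.08, limma, adjusted p = 0.329).

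Nap1l1 encodes a histone chaperone that carries H2A-H2B dimers. Its polysomal values were 11.74, 11.78 and 11.76 with 4EGI-1 and 11.99, 11.92 and 11.86 in control cells, again without overlap. The difference was -0.17 ± 0.09 (limma, adjusted p = 0.196). Vim encodes vimentin, an intermediate filament protein of mesenchymal and blood cells, and had polysomal values of 9.17, 8.91 and 9.05 with 4EGI-1 and 9.06, 9.05 and 9.09 in control cells. Here the treated arrays lay on both sides of the control arrays, and the difference was -0.02 ± 0.10 (limma, adjusted p = 0.907).

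Tpt1 encodes the translationally controlled tumour protein, a small, abundant protein linked to growth and cell survival. On the probe set used, its polysomal values were 12.12, 12.06 and 12.07 with 4EGI-1, against 12.25, 12.28 and 12.23 in control cells. The groups did not overlap, and the difference of -0.17 ± 0.08 did not pass (limma, adjusted p = 0.159).

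Tpt1 had 4 probe sets, which differed in the size of this effect. The one with the third highest mean had polysomal values of 11.32, 11.33 and 11.25 with 4EGI-1, against 11.71, 11.85 and 11.68 in control cells, a wider gap than on any of the other Tpt1 probe sets. In a fit of 20856 probe sets, of which 20.3% passed in this comparison, that probe set fell by 0.45 ± 0.07 (limma, adjusted p = 0.0011). On the second highest and the lowest, the differences were -0.20 ± 0.09 (limma, adjusted p = 0.128) and -0.26 ± 0.14 (limma, adjusted p = 0.221). All 4 were lower with 4EGI-1, so the direction did not depend on the choice of probe set while the call did. The call also depended on the setting. The probe set used passed with array weights (limma, adjusted p = 0.0295) and with only the 6 polysomal arrays (limma, adjusted p = 0.0401). Tpt1 is known to have many processed pseudogenes, and the annotation gives the same transcript accessions for all 4 probe sets, so which of them reads the parent gene alone was not tested.

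**Figure D2:**
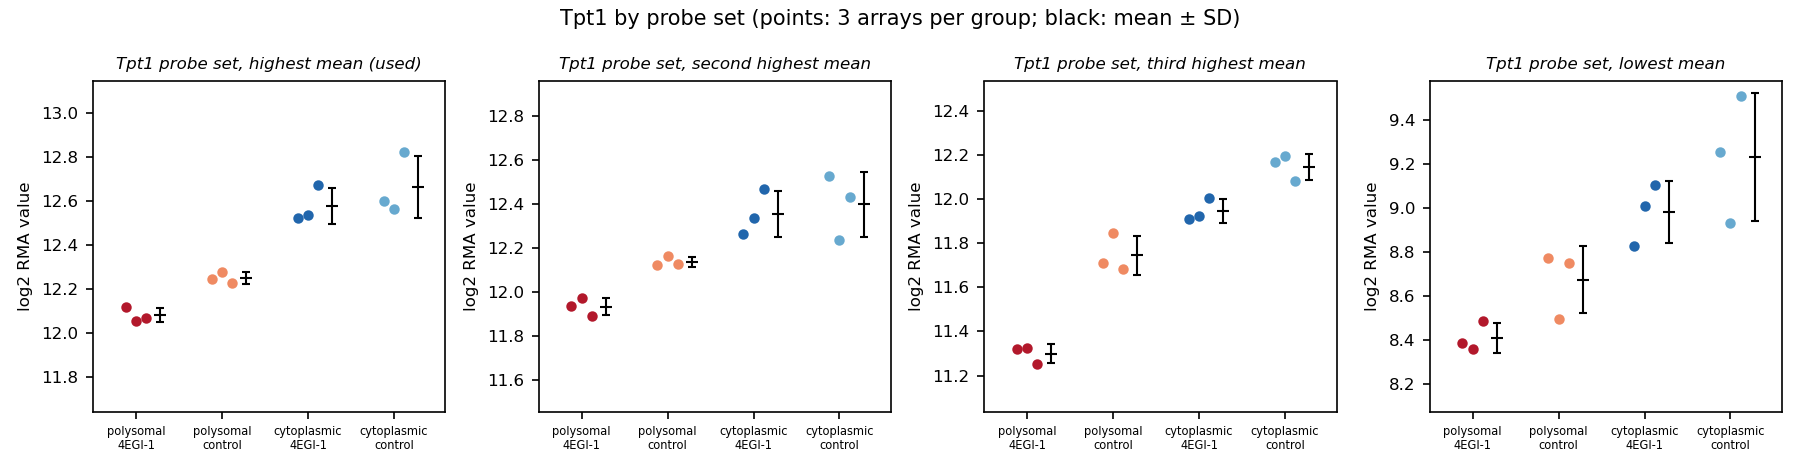
Log2 RMA values (vertical axis) of the 4 probe sets of Tpt1, from the highest mean at left to the lowest at right, in the 4 groups (horizontal axis), with points for the 3 arrays and the mean ± SD in black. In each panel the polysomal arrays lie below the cytoplasmic ones, and the third panel has the widest gap between the polysomal 4EGI-1 arrays (11.25 to 11.33) and the polysomal control arrays (11.68 to 11.85).

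In cytoplasmic RNA, which reports the mRNA level, the differences with 4EGI-1 were also all negative, although that of Pabpc1 was 0.02 after quantile normalization, and their median was -0.13 on the log2 scale against -0.03 over all genes. Pfdn5 was the only one of the 7 to pass, against 17.8% of all genes in either direction, 7.79% lower and 10.1% higher. Its cytoplasmic values were 10.50, 10.68 and 10.62 with 4EGI-1, against 10.79, 10.89 and 10.82 in control cells, with no overlap. It fell by 0.23 ± 0.08 (limma, adjusted p = 0.0482), a 1.18-fold reduction. This call was at the threshold and was lost under 16 of 26 other settings (adjusted p up to 0.195), among them the removal of any single array except cytoplasmic 4EGI-1 array 2.

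Vim had the most negative cytoplasmic value of the 7, with 9.02, 8.82 and 9.05 with 4EGI-1 against 9.25, 9.07 and 9.38 in control cells. Each treated array was below each control array, and the difference of -0.27 ± 0.10 did not pass (limma, adjusted p = 0.0689). It passed under 6 of 26 other settings, among them quantile normalization (limma, adjusted p = 0.0225), under which Pfdn5 did not. Btf3 was at 11.80, 11.99 and 12.00 with 4EGI-1 and at 12.06, 12.06 and 12.22 in control cells, without overlap, a difference of -0.18 ± 0.08 (limma, adjusted p = 0.135). On the other Btf3 probe set the arrays overlapped, with a difference of -0.01 ± 0.08 (limma, adjusted p = 0.937). On the probe sets used, every treated array was thus lower in 3 of the 7 genes, Pfdn5, Vim and Btf3. The same arrangement was found in 12.8% of all genes.

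Cytoplasmic Naca overlapped between treatments, with 12.13, 12.21 and 12.33 with 4EGI-1 against 12.31, 12.33 and 12.42 in control cells (difference -0.13 ± 0.07, limma, adjusted p = 0.246). On its other probe set Naca did not overlap (difference -0.19 ± 0.08, limma, adjusted p = 0.137). Nap1l1 overlapped, with 11.62, 11.77 and 11.61 against 11.81, 11.90 and 11.60 in control cells (difference -0.11 ± 0.09, limma, adjusted p = 0.451). On the probe set used, the values of Tpt1 were 12.52, 12.54 and 12.67 with 4EGI-1 and 12.60, 12.56 and 12.82 in control cells. They overlapped, with a difference of -0.09 ± 0.08 (limma, adjusted p = 0.523). The Tpt1 probe set with the third highest mean did not overlap in cytoplasmic RNA (difference -0.20 ± 0.07, limma, adjusted p = 0.0981). The second highest and the lowest overlapped, at -0.04 ± 0.09 (limma, adjusted p = 0.797) and -0.25 ± 0.14 (limma, adjusted p = 0.283). For Pabpc1, whose cytoplasmic arrays spread more than those of any other of the 7 genes, 12.48, 12.50 and 12.88 with 4EGI-1 stood against 12.71, 12.43 and 12.78 in control cells, a difference of -0.02 ± 0.11 (limma, adjusted p = 0.934). Cytoplasmic array 3 held the highest value of its group in both treatments for Pabpc1, Tpt1, Naca, Btf3 and Vim, and the median gene of the 7 lay 0.08 above its group mean on 4EGI-1 array 3 and 0.11 above it on control array 3. Without both number 3 arrays the cytoplasmic Pfdn5 difference was -0.25 (limma, adjusted p = 0.0693).

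Whether the polysomal effect exceeded the cytoplasmic one was tested as the difference of both effects. On the probe sets used, none of the 7 genes passed (limma), 1 had an unadjusted p under 0.05, and 2.92% of all genes passed, 2.31% higher and 0.607% lower. That gene was Pfdn5, with a difference of -0.36 ± 0.11 (limma, adjusted p = 0.116) and a 95% interval of -0.59 to -0.12. For Vim, whose cytoplasmic difference was larger than its polysomal one, the value was 0.25 ± 0.14 (limma, adjusted p = 0.475). For the remaining 5 genes it lay between -0.08 and 0.01 on the probe sets used. The third highest Tpt1 probe set gave -0.24 ± 0.10 (limma, unadjusted p = 0.035, adjusted p = 0.347), the second highest -0.16 and the lowest -0.01. The other probe sets of Naca and Btf3 gave 0.15 and -0.11. None of these passed (limma).

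**Figure D3:**
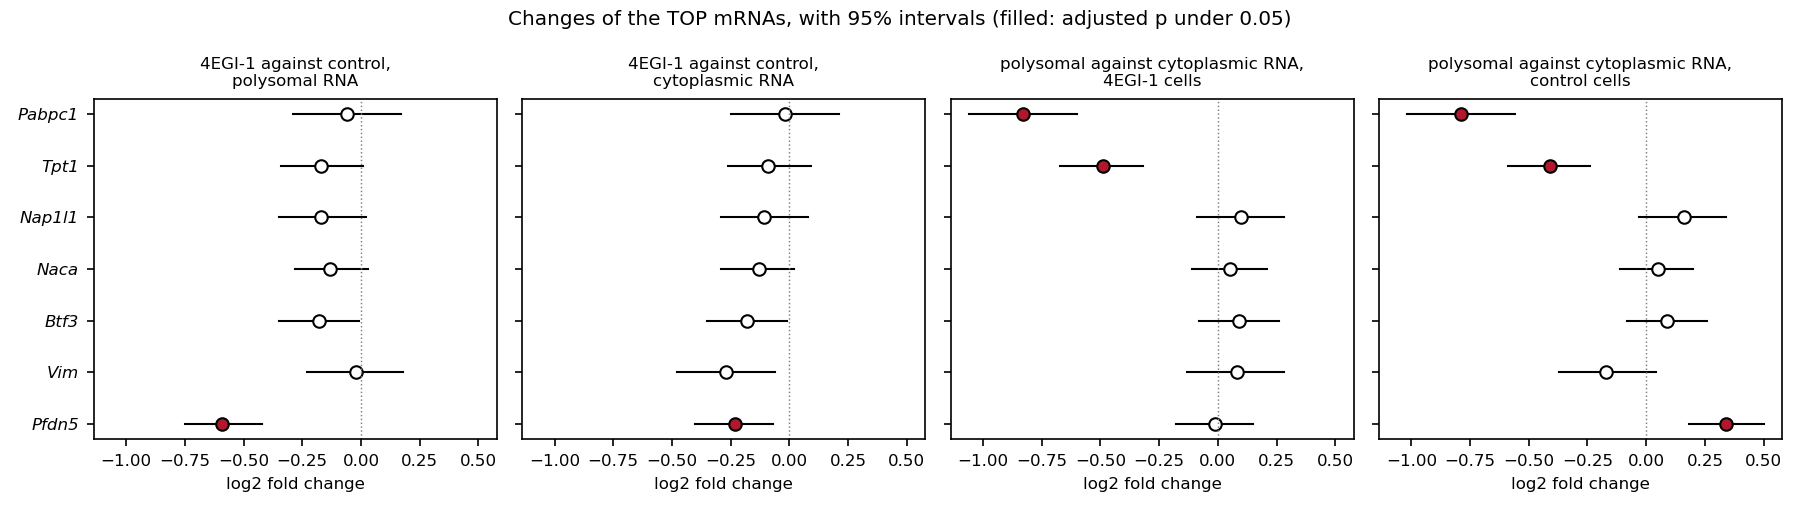
Log2 fold changes (horizontal axis) with 95% intervals of the 7 genes (vertical axis) for 4EGI-1 against control in polysomal and in cytoplasmic RNA and for polysomal against cytoplasmic RNA in cells with 4EGI-1 and in controls, with filled points for adjusted p under 0.05. Pfdn5 is filled in both treatment panels and in control cells of the fraction comparison, and Pabpc1 and Tpt1 are filled in both fraction panels.

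The fractions were then compared within each treatment. Relative to all genes on the arrays, Pabpc1 and Tpt1 were less abundant in polysomal than in cytoplasmic RNA whether or not 4EGI-1 was given, and Pfdn5 was more abundant in polysomal RNA of control cells. In control cells Pabpc1 was at 11.85, 11.87 and 11.83 in polysomal RNA and at 12.71, 12.43 and 12.78 in cytoplasmic RNA, and no polysomal array came near a cytoplasmic one. It was lower in polysomal RNA by a factor of 1.73, a log2 difference of -0.79 ± 0.11 (limma, adjusted p = 9.09e-05). In 4EGI-1 cells the difference was -0.83 ± 0.11, a factor of 1.78 (limma, adjusted p = 0.00025), which ranked 70th from the lowest of 13180 genes.

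Tpt1 in control cells was at 12.25, 12.28 and 12.23 in polysomal RNA, against 12.60, 12.56 and 12.82 in cytoplasmic RNA. All polysomal arrays were lower, with a difference of -0.41 ± 0.08 (limma, adjusted p = 0.00156). In 4EGI-1 cells the difference was -0.49 ± 0.08 (limma, adjusted p = 0.00129). The other 3 probe sets of Tpt1 gave -0.26, -0.40 and -0.56 in control cells and -0.42, -0.65 and -0.57 in 4EGI-1 cells, and each passed in the fit of probe sets (limma, adjusted p at most 0.0407).

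Pfdn5 in control cells was at 11.14, 11.21 and 11.17 in polysomal RNA and at 10.79, 10.89 and 10.82 in cytoplasmic RNA, the polysomal arrays all being higher. The difference was 0.34 ± 0.08, a factor of 1.27 (limma, adjusted p = 0.00361). In 4EGI-1 cells the polysomal arrays (10.51, 10.67 and 10.57) overlapped the cytoplasmic ones (10.50, 10.68 and 10.62), with a difference of -0.01 ± 0.08 (limma, adjusted p = 0.92). Of the 4 group levels of Pfdn5 polysomal control was the highest, and the pair of 4EGI-1 groups could not be put in order. Cytoplasmic control stood next, above cytoplasmic 4EGI-1 only by the call at the threshold given above, and it was not tested against polysomal 4EGI-1.

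The remaining 4 genes did not differ between fractions beyond the test's threshold. In control cells the polysomal minus cytoplasmic differences were 0.05 ± 0.07 for Naca, 0.09 ± 0.08 for Btf3, 0.16 ± 0.09 for Nap1l1 and -0.17 ± 0.10 for Vim (limma, adjusted p of at least 0.206). In 4EGI-1 cells they were 0.05, 0.09, 0.10 and 0.08 (limma, adjusted p of at least 0.488). The other probe sets gave 0.12 for Naca (limma, adjusted p = 0.323) and -0.10 for Btf3 (limma, adjusted p = 0.399) in 4EGI-1 cells. In control cells they gave -0.03 for Naca and 0.00 for Btf3, and neither passed (limma). Over the 7 genes, 3 passed in control cells, where 29.0% of all genes did, 1 being higher and 2 lower in polysomal RNA, against 16.7% and 12.2% of all genes. The same 3 were those whose arrays did not overlap, an arrangement that 21.5% of all genes showed in the higher and 19.9% in the lower direction. In 4EGI-1 cells 2 of the 7 passed, where 16.7% of all genes did, 0 higher and 2 lower, against 9.56% and 7.15%, and in these 2 the polysomal arrays were all lower, as in 17.0% of all genes. With each array centred on its median, 2760 genes were higher and 933 lower in control cells (2205 and 1614 without centring) and 2205 were higher and 427 lower in 4EGI-1 cells (1260 and 942 without), while the calls of Pabpc1, Tpt1 and Pfdn5 were kept. The medians of the 7, 0.05 in both, were near those of all genes, -0.02 and -0.01, so the group as a whole had no common position between the fractions.

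**Figure D4:**
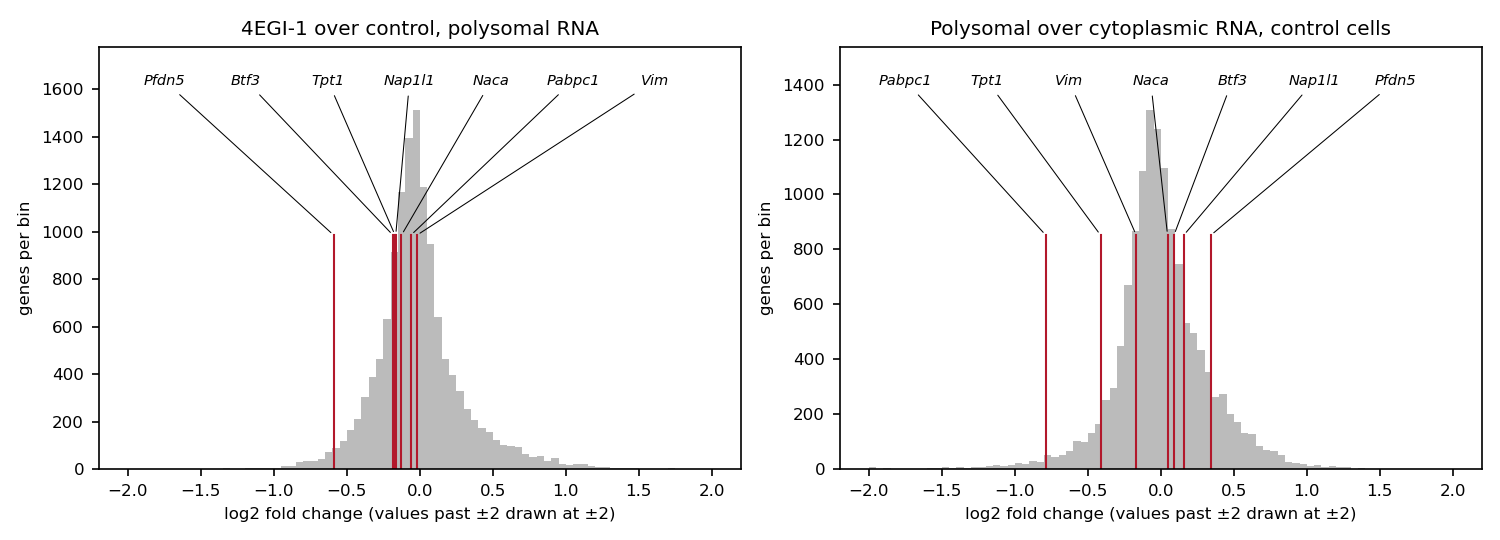
Numbers of genes (vertical axis) by log2 fold change (horizontal axis) over the 13180 tested genes, for 4EGI-1 against control in polysomal RNA at left and for the fractions of control cells, polysomal over cytoplasmic, at right, with red lines at the 7 genes. Pfdn5 stands apart at -0.59 at left, and Pabpc1 at -0.79 and Pfdn5 at 0.34 mark the ends of the genes' range at right.

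The 4 shared probe sets annotated to Hnrnpa1, a splicing factor that also shuttles with mRNA to the cytoplasm, passed in none of the 5 comparisons (limma over the 20856 probe sets, adjusted p between 0.172 and 0.998), and 0 of these 20 tests had an unadjusted p under 0.05. Their polysomal values with 4EGI-1 overlapped those of control cells except on the probe set with the second highest mean, which was at 12.53, 12.54 and 12.60 with 4EGI-1 and at 12.51, 12.34 and 12.49 in control cells. Since these probe sets are shared, the values describe the 4 genes together.

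Patterns over the 12 arrays were compared as the root mean square difference of log2 values after each gene's own mean was taken off. On the probe sets used, the closest pair among the 7 was Naca and Btf3, the subunits of 1 complex, at 0.0467. Naca was the nearest of all tested genes to Btf3. Their other probe sets were not compared in this way. The farthest pair was Pabpc1 and Pfdn5 at 0.543. Among all genes the nearest to Pabpc1 was Wbp1 (0.0759), to Tpt1 Jmjd4 (0.0526), to Naca Ctage5 (0.0405), to Nap1l1 the ribosomal protein gene Rpl24 (0.0523), to Vim Rbm19 (0.0602) and to Pfdn5 the spliceosomal gene Snrpd2 (0.0771). The median profile of the 7 genes was nearest to those of Cmah, Sec61a1, Rac1, Atf5 and Natd1, at 0.0508 to 0.0584.

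The other subunits of the prefoldin hexamer were measured beside Pfdn5, together with the 8 subunits of TRiC, the ring-shaped chaperonin that receives its clients. Separating both complexes was a choice made after the values were seen. Of the 5 other prefoldin subunits, 4 fell in polysomal RNA with 4EGI-1 (3 without polysomal control array 2), while 12.1% of all genes did. Polysomal Pfdn4 was at 8.26, 8.22 and 8.23 with 4EGI-1, against 8.77, 8.86 and 8.93 in control cells, without overlap, and fell by 0.62 ± 0.10 (limma, adjusted p = 0.000495). Pfdn6 was at 9.21, 8.99 and 9.25 with 4EGI-1 and at 9.72, 9.68 and 9.59 in control cells, and fell by 0.51 ± 0.09 (limma, adjusted p = 0.000727). Every treated array of both genes was below every control array.

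Pfdn1 fell by 0.49 ± 0.12 (limma, adjusted p = 0.00647) and Pfdn2 by 0.47 ± 0.12 (limma, adjusted p = 0.0113). Vbp1, the sixth subunit, is named here after its value was seen and had a difference of -0.29 ± 0.15 (limma, adjusted p = 0.204). In cytoplasmic RNA none of these 5 passed, where 17.8% of all genes did, with differences between -0.16 and 0.13. In the difference of effects none of the 6 subunits passed (limma, adjusted p of at least 0.101), where 2.92% of all genes did. An unadjusted p under 0.05 was found for 4 of the 6, and the median was -0.37. Without both number 3 cytoplasmic arrays 1 of the 6 passed, Pfdn2, and the median was -0.45.

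All 6 prefoldin subunits were higher in polysomal than in cytoplasmic RNA of control cells, where 16.7% of all genes were. The differences ran from 0.34 for Pfdn5 to 1.16 ± 0.12 for Pfdn2 (limma, adjusted p = 1.02e-05), with a median of 0.70. Polysomal Pfdn2 in control cells was at 11.31, 11.50 and 11.39, against 10.12, 10.56 and 10.05 in cytoplasmic RNA. In 4EGI-1 cells 3 of the 6 were higher, where 9.56% of all genes were, or 1 without polysomal 4EGI-1 array 1 or 2, and the median was 0.29. No TRiC subunit passed in any of the 5 comparisons (limma), in which 2.92% to 29.0% of all genes did. In polysomal RNA with 4EGI-1 and between the fractions of control cells, 0 of the 8 had an unadjusted p under 0.05. The polysomal 4EGI-1 differences of TRiC were -0.12 to 0.02, and its fraction differences in control cells were -0.10 to 0.10. Both complexes were read on the same arrays, and the difference between them was not tested.

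**Figure D5:**
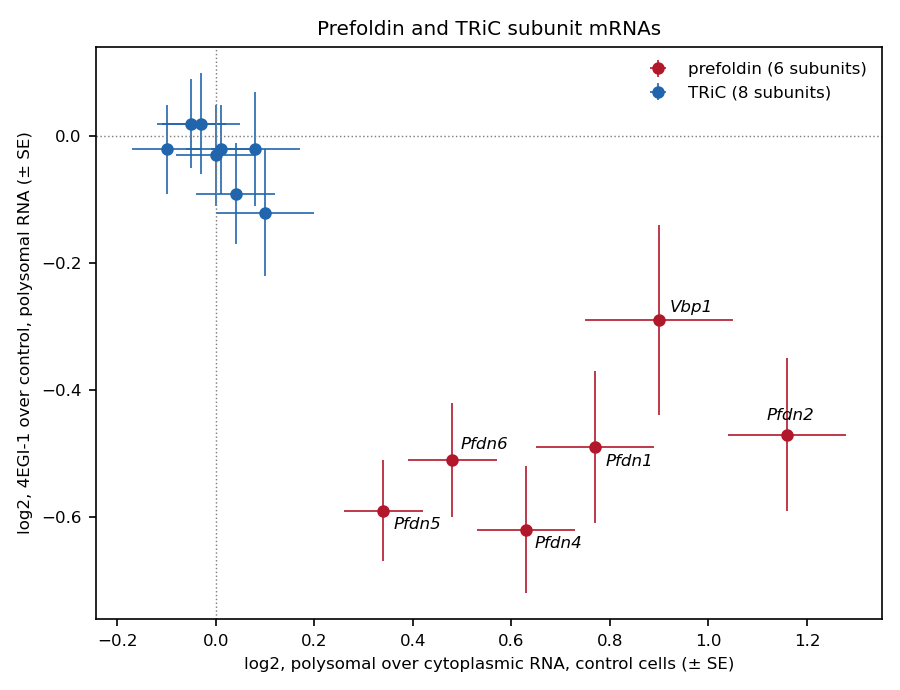
Log2 fold change with 4EGI-1 in polysomal RNA (vertical axis) against log2 polysomal over cytoplasmic RNA in control cells (horizontal axis) for 6 prefoldin and 8 TRiC subunits, with standard errors as bars. The prefoldin subunits lie at -0.62 to -0.29 and 0.34 to 1.16, and the TRiC subunits lie near 0 on both axes. The control polysomal arrays enter both axes, so the slope between them carries no information.

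Other genes of the members' pathways were counted from lists in which the members themselves were left out. Of 54 cytosolic ribosomal protein genes, the main class of TOP mRNAs, 17 fell and 0 rose in polysomal RNA with 4EGI-1, against 12.1% and 13.0% of all genes, and their median was -0.16, beside -0.17 for the 7 genes. Rps28 fell by 0.69 ± 0.10 (limma, adjusted p = 0.000138), Fau by 0.52 ± 0.09 (limma, adjusted p = 0.000391) and Rps14 by 0.49 ± 0.09 (limma, adjusted p = 0.000902). With any one polysomal array other than 4EGI-1 array 2 left out, 8 to 11 fell. In cytoplasmic RNA 3 fell and 0 rose, against 7.79% and 10.1% of all genes, with a median of -0.07, and 0 fell without cytoplasmic control array 3 or cytoplasmic 4EGI-1 array 2.

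Of 10 translation factors encoded by TOP mRNAs, 1 rose and 1 fell in polysomal RNA with 4EGI-1, near the shares of all genes (13.0% and 12.1%), and their median was 0.02. Eef2, the translocation factor of elongation, was at 12.26, 12.22 and 12.31 with 4EGI-1, against 11.72, 11.62 and 11.71 in control cells. It rose by 0.58 ± 0.09 without overlap (limma, adjusted p = 0.000228), while all 7 genes had negative differences. Eef1b2, an exchange factor of eEF1A, fell by 0.22 ± 0.07 (limma, adjusted p = 0.0389), a call lost when any polysomal array was left out (limma, adjusted p between 0.0551 and 0.156), without cytoplasmic 4EGI-1 array 1, with no filter on low values and under quantile normalization.

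Like Pabpc1 and Tpt1, 4 of the 10 factors were lower in polysomal than in cytoplasmic RNA of control cells, and 1 was higher, against 12.2% and 16.7% of all genes, and both counts were the same with each array centred on its median. The lower ones were Eef2 (-0.89 ± 0.09, limma, adjusted p = 6.11e-06), Eif3f, a subunit of the eIF3 initiation factor (-0.86 ± 0.10, limma, adjusted p = 1.68e-05), and, named after their values were seen, Eif4b (-0.45 ± 0.08, limma, adjusted p = 0.000492) and Eef1a1 (-0.37 ± 0.08, limma, adjusted p = 0.00217). Among the 54 ribosomal protein genes 14 were lower and 6 higher, beside the same 12.2% and 16.7%, a split that turned to 6 lower and 11 higher when each array was centred on its median, and Rpl12 (-1.96 ± 0.14, limma, adjusted p = 1.6e-07) and Rplp0 (-0.73 ± 0.09, limma, adjusted p = 3.89e-05) led the lower ones. With any one of the polysomal control arrays left out, 8 or 9 were lower. Rpl12 was dim in polysomal RNA of control cells, at 6.58, 6.31 and 6.44, against 8.49, 8.11 and 8.61 in cytoplasmic RNA. Its polysomal values lay near the filter's 6, so the size of its difference is uncertain.

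Around Pabpc1, 13 proteins of the poly(A) tail or known to bind TOP mRNAs were tested, of which 2 rose and 4 fell in polysomal RNA with 4EGI-1, against 13.0% and 12.1% of all genes. Pan2, the catalytic subunit of a deadenylase that Pabpc1 recruits, was at 9.50, 9.50 and 9.56 with 4EGI-1, against 8.77, 8.88 and 8.91 in control cells, and rose by 0.67 ± 0.09 (limma, adjusted p = 8.03e-05). Its partner Pan3 fell by 0.25 ± 0.07 (limma, adjusted p = 0.0175) and Tia1, a stress granule protein reported to bind TOP mRNAs in human cells, by 0.33 ± 0.09 (limma, adjusted p = 0.0141). With single polysomal arrays left out, 0 to 3 fell and 1 or 2 rose. Pan3 did not pass without polysomal 4EGI-1 array 2 or 3 or polysomal control array 2 or 3 (limma, adjusted p between 0.0592 and 0.0771), nor did Tia1 without polysomal 4EGI-1 array 2 or 3 or polysomal control array 1 (limma, adjusted p between 0.0514 and 0.0715). Larp1, named after its value was seen, had a difference of 0.05 ± 0.08 (limma, adjusted p = 0.704). Between the fractions of control cells, 5 of the 13 were higher and 1 lower in polysomal RNA, against 16.7% and 12.2% of all genes, and Larp1b was higher by 0.52 ± 0.11 (limma, adjusted p = 0.00288). The 5 became 2 or 3 without any one polysomal control array or without cytoplasmic control array 1.

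Around Naca and Btf3, 13 further nascent-chain factors were tested and 0 passed in polysomal RNA with 4EGI-1 (limma; 2 had an unadjusted p under 0.05), while 3 rose in cytoplasmic RNA (1 to 4 with single arrays left out), where 10.1% of all genes did. The cytoplasmic RNA of Btf3l4, a paralog of Btf3, rose by 0.29 ± 0.08 (limma, adjusted p = 0.028), opposite in sign to the -0.18 of Btf3, and Hspa14, a ribosome-associated Hsp70, rose by 0.55 ± 0.09 (limma, adjusted p = 0.000505). Btf3l4 did not pass without cytoplasmic 4EGI-1 array 1 or 2 or cytoplasmic control array 1 or 3, where Hspa14 alone of the 13 rose. In control cells 6 of the 13 were higher in polysomal RNA and 1 was lower, against 16.7% and 12.2% of all genes. Among the higher were Hspa14 (0.62 ± 0.09, limma, adjusted p = 0.000106) and Btf3l4 (0.49 ± 0.08, limma, adjusted p = 0.000484).

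For the families of the last members the counts were small, and the shares of all genes are those given for the lists above. Of 11 histone chaperones, 1 rose in polysomal RNA with 4EGI-1, Supt16 of the FACT complex, by 0.48 ± 0.09 (limma, adjusted p = 0.000845). In control cells 3 were higher (1 to 4 with single arrays left out) and 2 lower in polysomal RNA, with Anp32a at 0.48 ± 0.12 (limma, adjusted p = 0.00583) and Set at -0.79 ± 0.16 (limma, adjusted p = 0.00157). Set was dim, at 5.68, 6.03 and 5.61 in polysomal RNA and at 6.75, 6.26 and 6.67 in cytoplasmic RNA of control cells, around the filter's 6, so the size of its difference is uncertain. Of 16 other hnRNP genes, none passed with 4EGI-1 in polysomal RNA (limma; 1 had an unadjusted p under 0.05), and between fractions of control cells 2 were higher and 1 lower, Hnrnpc at 0.96 ± 0.14 (limma, adjusted p = 0.000129) and Hnrnpu at -0.27 ± 0.07 (limma, adjusted p = 0.012). Of 7 genes of intermediate filaments and lamins, none passed with 4EGI-1 in polysomal RNA (limma; 0 had an unadjusted p under 0.05), and the nuclear lamin gene Lmnb1 was higher in polysomal RNA of control cells by 0.37 ± 0.11 (limma, adjusted p = 0.019). Hnrnpu did not pass without cytoplasmic control array 1 (limma, adjusted p = 0.0527) or with each array centred on its median (limma, adjusted p = 0.0946), nor did Lmnb1 without cytoplasmic control array 3 or polysomal control array 1 or 2 (limma, adjusted p between 0.0564 and 0.0774).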

How the data were processed

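Polysomal and cytoplasmic RNA of #483 T-ALL cells with and without 4EGI-1 was measured on 12 single-colour arrays, 3 per group. The authors deposited log2 values of 34760 probe sets made with RMA, per the submitters' processing notes, which name neither a version nor the arrays normalised together. Array medians were 6.4 to 6.56, and precision is limited by having 3 arrays per group.

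Gene names came from the platform annotation, with symbols updated by Entrez number to RefSeq GRCm38.p6 (19855 of 19937 genes matched). 21640 probe sets had 1 symbol, 1321 several and 11799 none, and only those with 1 symbol entered the gene fit. Of several probe sets of a gene the one with the highest mean was used, and a gene had to reach a mean of 6 on the log2 scale, the 40th percentile over probe sets, which kept 13180 genes. A model of group means over the 12 arrays was fitted in limma 3.58.1 under R 4.3.3, using lmFit and eBayes, with 5 contrasts, Benjamini-Hochberg adjustment over the 13180 genes and a threshold of 0.05. On simulated data with 200 changed genes, in the polysomal comparison with 4EGI-1, 72% of log2 changes of 0.5 and 100% of changes of 1 were recovered, with 4.44% false calls. In the data themselves 25.2% of genes passed in this comparison, so these shares do not give the recovery there. Changes smaller than 0.5 were not simulated.

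The members, the gene lists and the settings were chosen with earlier results of these data known. All members are named, and from each list up to 3 genes with the smallest p-values among those that passed in the polysomal 4EGI-1 comparison and up to 2 in polysomal against cytoplasmic RNA of control cells, the 5 genes nearest to the members' median profile and the nearest to each member; genes outside this rule are marked as named after their values were seen. Groups with the same replicate number did not deviate together in every pair, so no block was used. Promoter windows came from the RefSeq table of GRCm38.p6. Settings tried were the filter, the probe set rule, the scaling, an intensity trend, array weights, replicate blocks, fits of 6 arrays and leaving out single arrays.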

Additional observations from a re-analysis of the deposited data

Results flagged for a closer look

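Among 40 genes named or examined here, the effect of 4EGI-1 differed between the fractions for 2, both outside the 7 measured members. Of all genes 2.92% passed in this comparison. Eef2 and Pan2 had been named for small p-values in polysomal RNA with 4EGI-1, an effect that enters this difference, so their calls are no separate support. For Eef2 the polysomal minus cytoplasmic difference of the effects was 0.63 ± 0.13 (limma, adjusted p = 0.0128), from 0.58 in polysomal and -0.05 in cytoplasmic RNA. For Pan2 it was also 0.63 ± 0.13 (limma, adjusted p = 0.0149), from 0.67 in polysomal and 0.04 in cytoplasmic RNA, and it did not pass without polysomal control array 1 (0.59, adjusted p = 0.0552) or without polysomal 4EGI-1 array 3 (0.61, adjusted p = 0.0548).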

How the results depend on the processing

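Over 26 other settings, the polysomal 4EGI-1 call of Pfdn5 (-0.63 to -0.55, adjusted p at most 0.000583) and the fraction calls of Pabpc1 and Tpt1 in both treatments were kept. The number of members called in cytoplasmic RNA with 4EGI-1, 1, was 0 with no filter, 0 with only the 6 arrays of that fraction, 0 without both number 3 cytoplasmic arrays (added after the data were seen), 4 with array quality weights, 2 with the replicate block as a fixed term and 0 to 1 with single arrays left out; where quantile normalization kept it at 1 the gene was Vim (adjusted p = 0.0225 and 0.0226), not Pfdn5. In polysomal RNA the number, 1, was 2 with the mean of all probe sets, adding Tpt1 (limma, adjusted p = 0.019). It was 2 with an intensity trend, adding Btf3 (limma, adjusted p = 0.0395). It was 3 with array weights and 3 with only 6 arrays. Both settings added Tpt1 (limma, adjusted p = 0.0295 and 0.0401) and Btf3 (limma, adjusted p = 0.035 and 0.0336). It was 2 with the third highest Tpt1 probe set (added after the data were seen). In the difference of effects array weights gave 1 call (Pfdn5, -0.31, adjusted p = 0.0195) where none passed otherwise, and a median of 0.05 in place of -0.05. The median of polysomal against cytoplasmic RNA in 4EGI-1 cells was 0.15 with median centring in place of 0.05, while that of all genes was 0.09 in place of -0.01, and Nap1l1 then passed in control cells (0.23, adjusted p = 0.0435). Btf3 passed between fractions of 4EGI-1 cells with array weights (0.19, adjusted p = 0.0268). The cause of the shifts other than with centring was not tested.

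After group means were removed, same-numbered arrays correlated at -0.216 to 0.075 for number 1, at 0.135 to 0.562 for number 2 and at -0.055 to 0.516 for number 3. Number 2 thus correlated above 0.1 in every pair of groups and the others did not, so whether the numbers pair the arrays is uncertain. The replicate block added Vim (-0.27, adjusted p = 0.0281) to the cytoplasmic calls, where it also passed under 5 other settings, and a replicate block by culture changed no call of a member.

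No value with a turned sign passed (adjusted p of at least 0.441). Pabpc1 in cytoplasmic RNA was 0.02 with quantile normalization over all arrays and 0.02 within each fraction. In the difference of effects, Btf3 was -0.05 with the mean of probe sets, -0.01 with quantile normalization and -0.02 without both number 3 arrays, Pabpc1 was 0.11 with weights and 0.02 without those arrays, and Nap1l1 was 0.01 with weights. Between fractions of 4EGI-1 cells, Btf3 was -0.01 with the mean of probe sets, and Pfdn5 was 0.08 with centring, which moved all genes alike, and 0.06 with weights. With single arrays left out, the ranges that crossed 0 were -0.15 to 0.05 (Pabpc1, cytoplasmic), -0.09 to 0.04 (Vim, polysomal), -0.06 to 0.02 (Pfdn5, fractions of 4EGI-1 cells) and, for the difference of effects, -0.11 to 0.08 (Pabpc1), -0.04 to 0.06 (Naca), -0.06 to 0.04 (Btf3) and -0.12 to 0.03 (Nap1l1). Over all genes, array weights gave 2890 higher and 2667 lower calls in cytoplasmic RNA (1325 and 1027 otherwise), 1147 and 1691 in the difference of effects (305 and 80), and fits of 6 arrays gave 731 and 369 in cytoplasmic and 2346 and 2685 in polysomal RNA (1717 and 1599 otherwise).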
